A study of Mus musculus with 6 samples.

Results

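The regions described here are the AGO2 clusters that lie on small nuclear and small nucleolar RNA genes of the mouse brain. A cluster was a member when it overlapped, on the same strand and by at least 1 nt, an mm10 RefSeq gene of biotype snoRNA, snRNA, scaRNA or guide RNA, or a gene whose symbol starts with Snord, Snora or Scarna. By this rule 232 of 359172 clusters were members in the WT library, 215 of 616014 in *Mov10* Deletion replicate 1 and 213 of 616005 in *Mov10* Deletion replicate 2. They lay on 214 of the 2009 small RNA genes whose strand was known, with 179 genes in WT and 143 in each *Mov10* Deletion library. AGO2 was crosslinked to RNA in whole brains of C57Bl/6J mice at P0 (postnatal day 0), immunoprecipitated (IP) and sequenced by chimeric eCLIP, in which a miRNA can be ligated to the RNA it sits on. The series holds 1 WT and 2 *Mov10* Deletion IP libraries, each with a size-matched input that enters here through the ratios the authors deposited. *Mov10* encodes an RNA helicase that works with AGO2. The *Mov10* Deletion mouse carries a floxed *Mov10* allele removed by Emx1-Cre, which acts in excitatory neurons of neocortex and hippocampus, beside a heterozygous mutant allele, so that in a whole brain the other cells keep the floxed copy. The control library came from WT mice. Clusters on *Mov10* itself numbered 11 in WT and 9 in each *Mov10* Deletion library, which is no check of the deletion in whole brain. Neuronal genes held many clusters in every library (*Map2* 136 in WT and 241 in each *Mov10* Deletion library, *Mapt* 86 and 132), and *Neurod2*, a neuronal transcription factor, held 4, 5 and 5. Of the markers of other tissues, *Ins2* (pancreas) and *Myh6* (heart) held 0 and *Alb* (liver) held 1, 3 and 3.

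Small nucleolar RNAs guide the chemical modification of other RNAs. Box C/D snoRNAs direct 2′-O-methylation and box H/ACA snoRNAs direct pseudouridylation, mostly of ribosomal RNA. The scaRNAs do the same for spliceosomal RNAs in Cajal bodies, and the snRNAs are the RNA parts of the spliceosome, of histone mRNA processing (U7) and of the control of transcription elongation (7SK). Most mouse snoRNAs are cut out of introns of a host transcript, often a ribosomal protein gene or a noncoding *Snhg* gene. AGO2 is the protein that carries miRNAs to target RNAs and is best known from the cytoplasm, whereas these RNAs reside mainly in the nucleus.

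Examples of both snoRNA classes and of the few members above input are given first. The sequences are GENCODE vM39 transcripts (GRCm39), whereas every position in the text is that of the RefSeq gene on mm10, and the 4 snoRNA transcripts of known box class are longer than their RefSeq genes. For the box C/D snoRNAs *Snord87* (chr1:9942470-9942543, minus strand, within *Snhg6*) and *Snord65* (chr11:62604530-62604586, plus strand, within 2410006H16Rik) the capitals mark box C (TGATGA) and box D (CTGA).
Snord87: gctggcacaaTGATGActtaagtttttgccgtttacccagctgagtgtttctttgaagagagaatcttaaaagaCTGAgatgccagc
Snord65: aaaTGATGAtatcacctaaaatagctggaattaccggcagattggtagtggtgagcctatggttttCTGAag
For the box H/ACA snoRNAs *Snora65* (chr2:32963301-32963418, plus strand, within *Rpl12*) and *Snora68* (chr8:70895759-70895856, minus strand) the capitals mark the ACA near the 3′ end.
Snora65: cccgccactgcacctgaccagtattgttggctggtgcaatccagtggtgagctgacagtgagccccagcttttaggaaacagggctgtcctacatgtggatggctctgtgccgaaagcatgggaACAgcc
Snora68: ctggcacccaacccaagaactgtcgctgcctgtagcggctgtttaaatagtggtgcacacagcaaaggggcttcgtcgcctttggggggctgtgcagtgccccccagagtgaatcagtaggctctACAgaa
Searched on the transcript strand only, TGATGA within the first 20 nt together with CTGA within the last 20 nt was held by 75% of 156 box C/D snoRNA genes and by 0% of 502 box H/ACA genes, and ACA within the last 8 nt by 5.13% and 64.5%. Of 389 snoRNA genes of no assigned box class, 37.0% held both TGATGA and CTGA there, and 38.0% held the ACA.
Both genes that follow held a cluster above input, and the capitals mark the nucleotides under the clusters of *Mov10* Deletion replicate 1. *Rnu7* (chr6:124741225-124741286, minus strand) is U7 snRNA and *Gm24339* (chr9:15326464-15326539, minus strand) is a snoRNA of no assigned box class within *Cep295*. Its class was assigned by symbol and sequence similarity only, and the printed *Gm24339* holds TGATGA within its first 20 nt and CTGA within its last 20 nt.
Rnu7: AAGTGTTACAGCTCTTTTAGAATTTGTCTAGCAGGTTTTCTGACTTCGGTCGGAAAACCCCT
Gm24339: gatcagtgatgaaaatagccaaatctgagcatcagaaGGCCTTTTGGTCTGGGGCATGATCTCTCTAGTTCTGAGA

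AGO2 IP over input was low on these RNAs. The median log2 IP over input of the member clusters was −1.99 in WT and, for the *Mov10* Deletion libraries, −0.99 (replicate 1) and −1.21 (replicate 2), whereas over all clusters it was 0.76, 1.12 and 1.25. A log2 below 0 was found for 81.0% of the member clusters in WT (Clopper-Pearson 95% interval 75.4 to 85.9), 71.2% in replicate 1 (64.6 to 77.1) and 72.3% in replicate 2 (65.8 to 78.2), and for 27.6%, 24% and 26% of all clusters. The authors' p-value is given as 0 on the −log10 scale for every cluster with a log2 below 0, so the error of single clusters was taken from the reads behind them. These were inferred from the deposited ratio, which equals IP reads divided by input reads, both integers, after scaling by 1 constant per library. A cluster was called depleted when the exact 95% interval of its log2, computed from those reads, was wholly below 0. For ratios below 1 the inferred reads are the smallest numbers that give the ratio, so the intervals are at least as wide as those of the true reads.

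Depleted clusters made up 123 of 232 members in WT, which is 53.0% (46.4 to 59.6), 92 of 215 in replicate 1 (42.8%, 36.1 to 49.7) and 78 of 213 in replicate 2 (36.6%, 30.1 to 43.5). Of all clusters, 1.38%, 1.33% and 0.778% were depleted. The members had more reads than other clusters, with a median of 28.5, 23 and 15 IP and input reads together against 8, 7 and 5 over all clusters, and a depletion is easier to see with more reads. Restricted to clusters with at least 16 reads, 77.0% of 148 members were depleted in WT, 69.2% of 130 in replicate 1 and 73.6% of 106 in replicate 2, beside 5.47%, 5.81% and 9.36% of all clusters of that depth. Clusters above input, with the whole interval above 0, were 9 of the members in WT, 11 in replicate 1 and 7 in replicate 2, which is 3.88%, 5.12% and 3.29%, against 9.21%, 19.2% and 11.8% of all clusters. As a description of how the libraries behave on RNA known to be loaded in AGO2, the 611 WT clusters on miRNA hairpins had a median log2 of 3.08, and the 472 and 473 of the *Mov10* Deletion libraries had 4.26 and 4.31. Other small RNAs outside the rule lay on either side. The RNase MRP RNA *Rmrp* had a log2 of −2.74 in WT, −2.52 in replicate 1 and −2.82 in replicate 2. The Y RNA *Rny3*, a small noncoding RNA found mainly in the cytoplasm, had 3.14, 3.27 and 2.75, with every interval above 0.

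**Figure D1:**
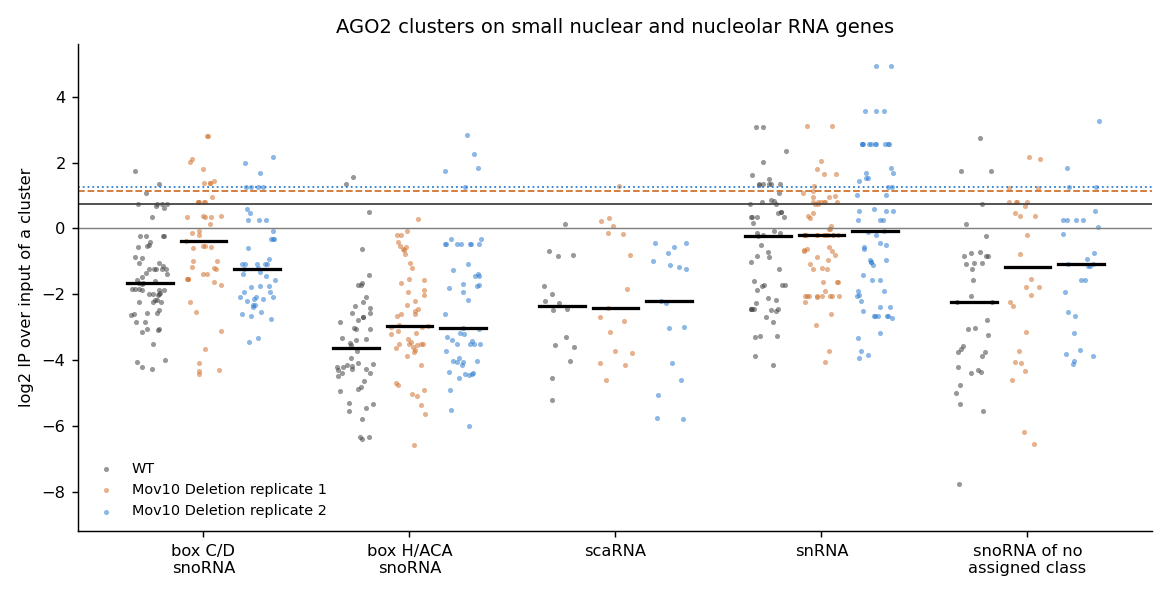
Log2 IP over input (y axis) of every member cluster by class of small RNA (x axis), 1 point per cluster and gene, with the median of each library as a black bar. The coloured horizontal lines are the medians of all clusters of each library (0.76, 1.12 and 1.25), and the box H/ACA snoRNAs lie lowest, with medians from −3.63 to −2.96.

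The level varied with the class of RNA. Clusters on box H/ACA snoRNAs had the lowest median log2 in every library, −3.63 over 52 clusters in WT, −2.96 over 53 in replicate 1 and −3.03 over 53 in replicate 2, and 76.9% (63.2 to 87.5), 71.7% (57.7 to 83.2) and 60.4% (46.0 to 73.5) of them were depleted. The scaRNAs followed with medians of −2.35 over 16 clusters, −2.40 over 17 and −2.21 over 17, and 81.3%, 64.7% and 64.7% of them were depleted, in WT a larger share than of the box H/ACA snoRNAs. Box C/D snoRNAs were closer to input, at −1.67 over 68 clusters in WT, −0.39 over 49 in replicate 1 and −1.22 over 49 in replicate 2, with 36.8% (25.4 to 49.3), 26.5% (14.9 to 41.1) and 24.5% (13.3 to 38.9) depleted. The intervals of these shares do not overlap between both snoRNA classes in any library. They cover counting error only, and clusters of 1 gene or host are not independent. Clusters on snRNAs were mixed. Their medians were −0.22, −0.20 and −0.08, yet 43.3%, 29.4% and 25.8% were depleted, a larger share than of the box C/D snoRNAs in each library, and 15%, 10.3% and 9.09% were above input. Of the snoRNAs without an assigned box class, 36 clusters in WT had a median of −2.51, and 28 in each *Mov10* Deletion library had −1.17 and −1.07. Taking 1 cluster per gene kept box H/ACA snoRNAs lowest, at −3.49, −2.59 and −3.03. Neighbouring clusters of 1 gene can share reads, since 18 of the member clusters in WT, 47 in replicate 1 and 45 in replicate 2 had the same ratio and p-value as another cluster of their gene.

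Among the box H/ACA snoRNAs, *Snora68*, printed above, lay far below input in every library. Its log2 was −6.33 in WT (interval −11.7 to −3.80), −4.76 in replicate 1 (−5.64 to −4.0) and −4.53 in replicate 2 (−5.67 to −3.60). The value of replicate 2 rests on at least 9 IP and 497 input reads. *Snora65*, also printed above, had −3.72, −5.64 and −3.72. It was depleted in all 3 libraries. The U17 snoRNAs *Snora73a* and *Snora73b*, which act in ribosomal RNA processing rather than modification and are hosted by *Snhg3*, were on the same level. *Snora73a* had −3.54 in WT, −3.21 in replicate 1 and −4.15 in replicate 2, and *Snora73b* had −4.62, −2.96 and −3.07. All of these intervals were below 0. In all, 34 of 45 box H/ACA genes were depleted in WT, 24 of 37 in replicate 1 and 22 of 37 in replicate 2, and none was above input in any library.

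The scaRNAs named by symbol were mostly depleted. *Scarna10*, within *Ncapd2*, had a log2 of −1.99 in WT, −1.84 in replicate 1 and −1.11 in replicate 2. Its interval was below 0 in each library, although only 5 of the 104 nt of the WT cluster lay within the RefSeq gene. *Scarna13*, within *Snhg10*, had −2.21, −2.69 and −2.99, and *Scarna3a*, within *Cop1*, had −5.20, −3.72 and −5.77. Both were depleted in all 3 libraries. *Scarna3b*, *Scarna6* and *Scarna8* held a cluster in WT alone, at −3.53, −2.48 and −4.02. *Scarna9* was the exception, with 0.14 in WT (−0.26 to 0.54), 0.09 in replicate 1 (−0.33 to 0.50) and −0.43 in replicate 2 (−1.41 to 0.46). These intervals all include 0.

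Box C/D snoRNAs with a role in ribosomal RNA processing were scattered between input and clear depletion. The 5 genes of the U3 snoRNA (symbols starting *Rnu3*) were given no strand and are left out here. *Snord118*, the U8 snoRNA, had a log2 of −0.41 in WT (−0.95 to 0.13), −0.07 in replicate 1 (−0.87 to 0.70) and −0.94 in replicate 2 (−1.79 to −0.17), so only the last was below input. *Snord22*, within *Snhg1*, was lower, at −1.97 in WT (−2.71 to −1.28) and −2.32 in replicate 2 (−3.48 to −1.34), but −0.55 in replicate 1 (−1.20 to 0.07). *Snord13* held clusters in WT alone, at −1.99. *Snord14c*, *Snord14d* and *Snord14e*, which share the host *Hspa8*, ranged from −2.65 to −0.13 over the 3 libraries, and only *Snord14d* in WT was depleted (−2.18, −3.77 to −0.85). Of the snoRNAs that serve as small RNA references in mouse qPCR, *Snord65* had −1.88, −4.41 and −1.38, and its intervals were below 0 in each library. *Snord68*, within *Rpl13*, had −1.14, −0.39 and −2.14, with an interval below 0 in replicate 2 alone. *Snord70* held a cluster only in the *Mov10* Deletion libraries (1.38 and 1.25), each with an interval that includes 0. *Snord87*, within *Snhg6* and printed above, had −4.21, −4.08 and −2.07, and was depleted in WT and replicate 1.

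Of the C/D snoRNAs of the imprinted brain clusters, none of the 17 *Snord116* genes held a cluster in any library, and no gene in the table is named *Snord115*, *Snord107*, *Snord113* or *Snord114*. Reads on repeat elements had been removed before mapping. Whether reads can be placed on single genes of these imprinted snoRNAs was not tested, so a missing cluster does not show that AGO2 was absent. Inside *Snhg14*, the imprinted host of such snoRNAs, 5 of 69 box C/D genes held a cluster. Over all box C/D genes with a known strand it was 63 of 157. Apart from *Snord64*, the values of these 5 genes were below 0. *Gm26504* had a log2 of −4.05 in WT (−9.45 to −1.33), −1.20 in replicate 1 (−6.82 to 2.14) and −1.45 in replicate 2 (−4.64 to 0.70). *Gm24264*, *Gm25615* and *Gm26097* held a cluster in WT alone, at −2.24, −1.83 and −3.05, and of these the interval of *Gm26097* lay below 0. Of 133 snoRNAs of no assigned box class inside *Snhg14*, 4 held a cluster, with values on both sides of 0. In WT, *Gm25088* had 1.76 and *Gm26337* had −0.24. In replicates 1 and 2, *Gm24310* had 0.80 and 0.25, and *Gm24495* had −2.37 and 1.84. A cluster of 60 nt at *Snord64*, within *Snhg14*, was above input in both *Mov10* Deletion libraries, with a log2 of 1.43 and −log10 p of 4.62 in replicate 1 and a log2 of 2.17 and −log10 p of 7.01 in replicate 2. WT had no cluster on this gene. Only 4 of its 60 nt lie within the snoRNA, and the rest is sequence of the host.

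**Figure D2:**
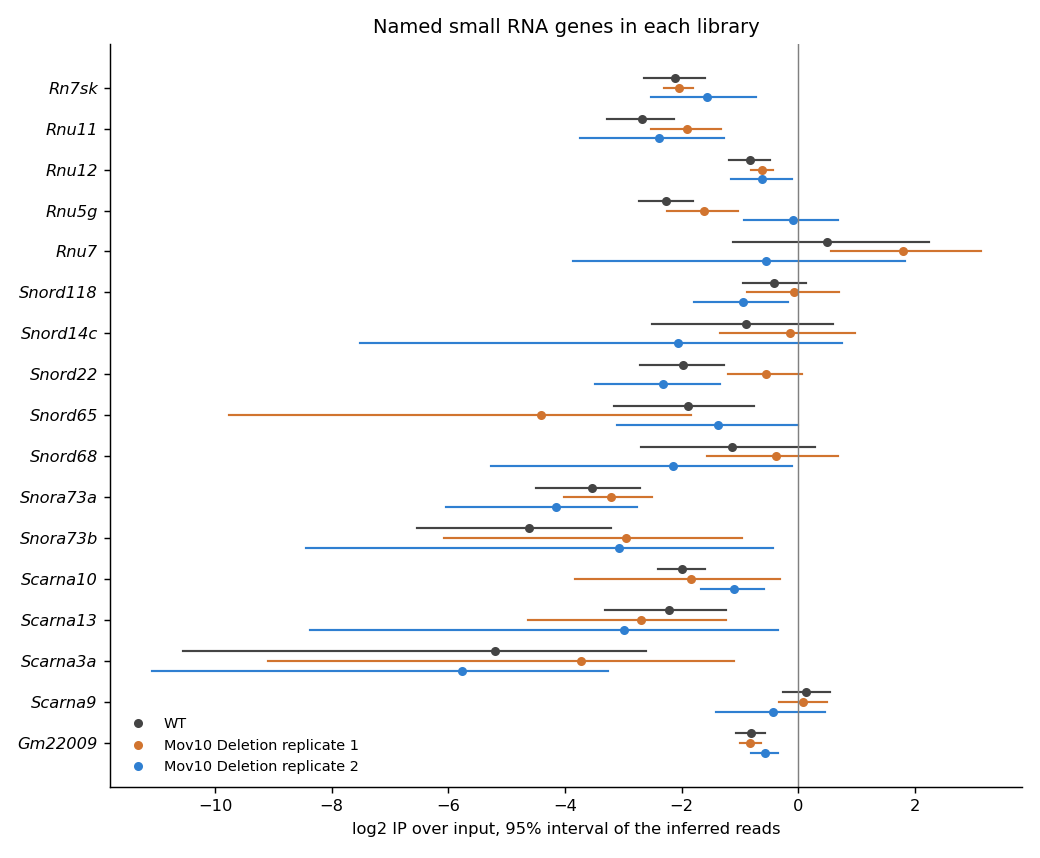
Log2 IP over input (x axis) of named small RNA genes (y axis), with points for the cluster of each library and lines for its exact 95% interval. *Rn7sk*, *Rnu11*, *Rnu12*, both *Snora73* genes, *Scarna10*, *Scarna13*, *Scarna3a* and *Gm22009* lie below 0 in all 3 libraries.

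The snRNA families fell on both sides of input. *Rn7sk*, the 7SK RNA, had a log2 of −2.11 in WT (−2.64 to −1.60), −2.05 in replicate 1 (−2.31 to −1.80) and −1.57 in replicate 2 (−2.53 to −0.72). These intervals overlap one another and all lie below 0. The minor spliceosome RNAs were depleted too. *Rnu11* had −2.68, −1.90 and −2.38, and *Rnu12* had −0.82 in WT (−1.18 to −0.48), −0.62 in replicate 1 (−0.81 to −0.44) and −0.62 in replicate 2 (−1.15 to −0.11). *Rnu5g*, a U5 RNA of the major and minor spliceosomes, had −2.26 in WT (−2.73 to −1.81) and −1.61 in replicate 1 (−2.25 to −1.02), whereas replicate 2 was at input (−0.10, −0.92 to 0.68). *Rnu7* was above input in 1 library, with 0.49 in WT (−1.11 to 2.24), 1.8 in replicate 1 (0.57 to 3.14) and −0.55 in replicate 2 (−3.86 to 1.84). *Rnu1a1* held a cluster only in the *Mov10* Deletion libraries, at 0.06 and −1.55, on at least 3 and 1 IP reads.

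Relatives of U1 and of U6 made up most of the snRNA clusters. U1 and U6 are RNAs of the major spliceosome. The U1 family had median log2 values of −2.32 over 22 clusters in WT, −1.63 over 25 in replicate 1 and −2.38 over 23 in replicate 2. The U6 family had 0.95 over 20 clusters, 0.38 over 29 and 2.58 over 29. In replicate 2, 10 of those 29 were clusters of *Gm22363* with 1 shared value of 2.58, and in replicate 1 the same gene gave 11 clusters at −0.20. With 1 cluster per gene the U6 medians were 0.82 over 13 genes, 0.88 over 14 and 1.25 over 14. No U6 relative was depleted in any library, whereas 6 of 10 U1 relatives were depleted in WT and 4 of 10 in each *Mov10* Deletion library. The gene of origin within a family is uncertain. *Gm22360* and *Gm24260* are 100% and *Gm24917* is 96.2% identical to *Rnu6* over the aligned part, and 646 genes with a known strand belong to the U6 family. Reads on repeat elements had also been removed before mapping to the genome.

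**Figure D3:**
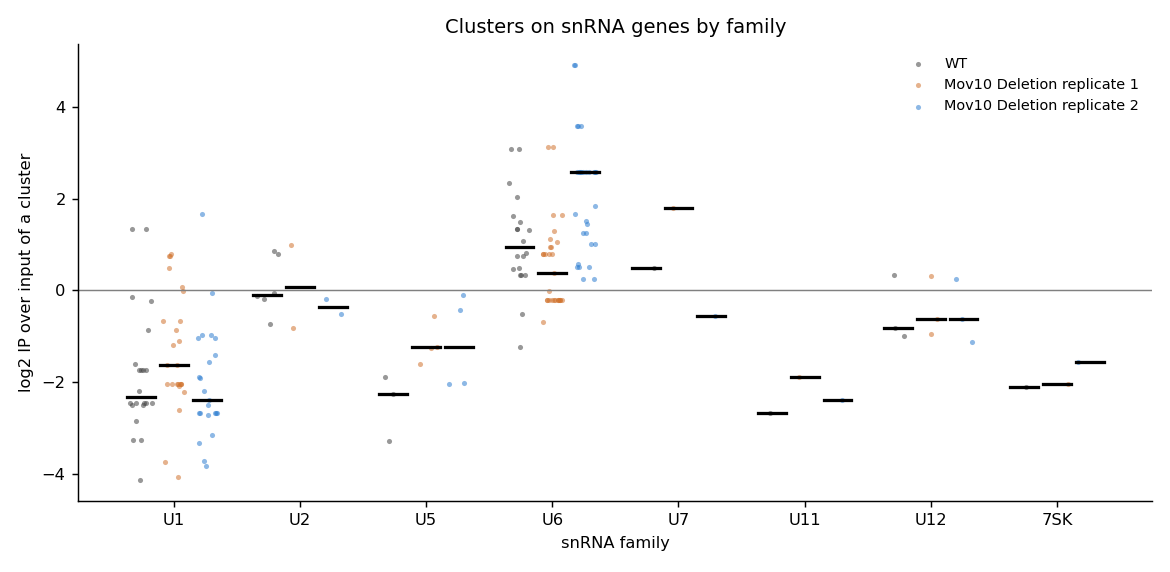
Log2 IP over input (y axis) of the clusters on snRNA genes by family (x axis), 1 point per cluster, with the median of each library as a black bar. The U6 family has medians above 0 (0.95, 0.38 and 2.58), and U1, U5, U11 and 7SK have medians below it in every library.

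Few members were enriched in AGO2, taken as a log2 of at least 3 with a −log10 p of at least 3. There were 2 such clusters in WT, 0 in replicate 1 and 2 in replicate 2, which is 0.862%, 0% and 0.939% of members, against 2.11%, 5.18% and 3.1% of all clusters. The WT pair lay on *Gm22360*, a relative of U6 (chr1:95832129-95832235, minus strand), and both clusters had a log2 of 3.08 (1.04 to 6.22) and a −log10 p of 3.44 from 20 IP and 2 input reads. The same gene had 1.65 in replicate 1 and 0.52 in replicate 2, on 9 and 3 IP reads, with intervals that include 0 and overlap that of WT. The pair of replicate 2 lay on *Gm24917*, another relative of U6 (chr11:22868901-22869004, plus strand), with a log2 of 4.92 (3.26 to 7.26) and a −log10 p of 16.5 from 38 IP and 3 input reads. In replicate 1 the same coordinates had a ratio in lowest terms of 1 read to 1 and a log2 of 0.80 (−5.50 to 7.09), and WT had no cluster there. No gene was enriched in both *Mov10* Deletion libraries, and none in all 3. Below the log2 limit but with a −log10 p of at least 3 were *Gm24260* in WT (1.34, 66 IP and 22 input reads), *Gm24339* in replicate 1 (2.17, 31 and 12 reads) and the *Snord64* cluster. *Gm24260*, also a U6 relative, was also above 0 in replicate 1 (0.95, 0.15 to 1.76) and had 1.01 (−0.29 to 2.29) in replicate 2. For *Gm24339*, which lies next to *Scarna9* in *Cep295*, the values of WT (0.14) and replicate 2 (0.06) had intervals that include 0. The WT value is that of 1 cluster of 234 nt counted for both *Scarna9* and *Gm24339*, whereas *Gm24339* is 76 nt long. It is thus no separate measurement of *Gm24339*.

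Many of these small RNA genes lie inside a host transcript, so their clusters were set beside the other clusters of that host. Of the genes whose host held at least 3 other clusters, 91 of 109 lay below the host's median log2 in WT (83.5%, 75.2 to 89.9), 81 of 96 in replicate 1 (84.4%, 75.5 to 91.0) and 77 of 96 in replicate 2 (80.2%, 70.8 to 87.6). The median difference between small RNA and host was −2.58 in WT, −2.02 in replicate 1 and −2.05 in replicate 2, while the median of the host medians was 0.34, 0.98 and 0.89. Box H/ACA snoRNAs lay below their host in 26 of 28, 25 of 25 and 22 of 25 genes. *Snora65* illustrates this in replicate 1, with −5.64 beside 0.80 over 7 other clusters of *Rpl12*. *Scarna9* in WT was close to its host, at 0.14 beside 0.17 over 21 other clusters of *Cep295*. Clusters lay mostly within the small RNA itself, since 93.1% in WT, 91.2% in replicate 1 and 91.1% in replicate 2 of the pairs of cluster and gene had no more of the cluster outside the gene than inside it.

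**Figure D4:**
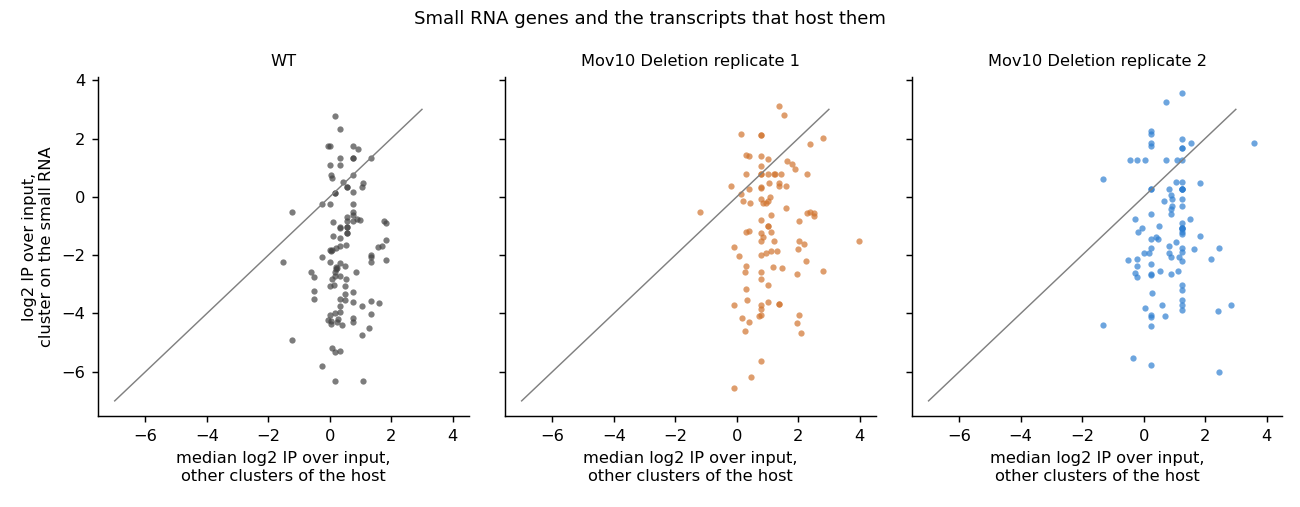
Log2 IP over input of the cluster on a small RNA gene (y axis) against the median log2 of the other clusters of its host transcript (x axis), 1 point per gene, for hosts with at least 3 other clusters, with the line of equality in grey. Most points lie under the line, 91 of 109 in WT, 81 of 96 in replicate 1 and 77 of 96 in replicate 2.

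Member clusters were narrower than others, with a median width of 56 nt in WT, 44 in replicate 1 and 42 in replicate 2 against 69, 55 and 55 nt over all clusters. Without member clusters under 10 nt the medians were 59 nt in WT, 55 in replicate 1 and 52 in replicate 2. The widths over all clusters were not recomputed in this way. The *Mov10* Deletion libraries share the coordinates of 198 member clusters, so their widths are not independent. Small RNA genes are short, and the part of gene length in this was not tested. Where a cluster lay mostly inside a gene whose RefSeq and GENCODE lengths were the same, its middle lay at a median of 0.37 of the gene's length from the 5′ end in WT (131 clusters), 0.40 in replicate 1 (125) and 0.41 in replicate 2 (123). Of the WT clusters 54 had their middle in the first part when the gene was divided into 3 equal parts, 60 in the middle part and 17 in the last. The *Mov10* Deletion libraries had 51, 52 and 22 in replicate 1 and 49, 52 and 22 in replicate 2.

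Chimeric reads, in which a miRNA is joined to its target, were counted on these genes as well. The authors' miRNA target clusters on them numbered 18 of 22074 in WT, 12 of 30526 in replicate 1 and 10 of 13468 in replicate 2, which is 0.0815%, 0.0393% and 0.0743%. The AGO2 clusters on these genes were 0.0646%, 0.0349% and 0.0346% of all AGO2 clusters. An AGO2 cluster is a single region. A region with several miRNAs was counted once for each among the target clusters, so these shares have unlike units. The target clusters lay at 12 distinct regions in WT and 7 in each *Mov10* Deletion library. They fell on 15 genes and made 28 pairs of gene and miRNA, of which 3 were found in all libraries, 11 in WT alone and 0 in both *Mov10* Deletion libraries without WT. The same counts were not made over all target clusters, so these give no comparison of the genotypes. The score that ranks them is a number of at least 3 whose definition is not given in the sources used here. The highest scores lay on *Gm22009*, a scaRNA (chr3:69085105-69085447, minus strand) within *Kpna4*, with miR-466i-5p, at 84.6 in WT, 52.4 in replicate 1 and 16.5 in replicate 2. The mature sequence of miR-466i-5p was not at hand, so no match to its seed was searched. The stretch under this target cluster in replicate 1 (chr3:69085240-69085301) is printed with every TGTGTG in capitals, which mark a repeat and not a site of the miRNA.
Gm22009: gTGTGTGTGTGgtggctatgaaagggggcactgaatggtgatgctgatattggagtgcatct
*Gm22009* itself was below input in the AGO2 clusters, with a log2 of −0.81 in WT (−1.06 to −0.57), −0.82 in replicate 1 (−1.0 to −0.64) and −0.58 in replicate 2 (−0.81 to −0.34). *Scarna9* was also paired with miR-466i-5p, with scores of 19.3 in WT and 25.7 in replicate 1. The 7SK RNA *Rn7sk* held the most miRNAs. It was paired with miR-9-5p at 16.9 in WT and 15.2 in replicate 1, and with miR-99a-5p at 4.37 in WT, 4.55 in replicate 1 and 14.4 in replicate 2. The box C/D snoRNA *Gm26202*, within *Rpl17*, was paired with miR-219a-5p in all 3 libraries, at 7.94, 5 and 6.94. The mature sequences of miR-9-5p, miR-99a-5p and miR-219a-5p, from RefSeq (GRCm38.p6), are printed with the seed, bases 2 to 8, in capitals.
mmu-miR-9-5p: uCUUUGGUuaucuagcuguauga
mmu-miR-99a-5p: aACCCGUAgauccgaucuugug
mmu-miR-219a-5p: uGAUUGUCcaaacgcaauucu
None of these 3 miRNAs had a match to the reverse complement of its seed in the paired gene. The match to miR-9-5p would read ACCAAAG, that to miR-99a-5p TACGGGT and that to miR-219a-5p GACAATC, searched on the transcript strand. They were held by 0.349%, 0% and 0.150% of the small RNA genes. Of the 21 pairs whose mature sequence was at hand, 2 had a 7-base match in the gene and 3 a match to bases 2 to 7. The pair with a 7-base match and the higher score was *Snord55* with miR-103-3p (ATGCTGC, score 13.7 in WT). *Snord55* was near input in the AGO2 clusters, at 0.67 in WT, −0.52 in replicate 1 and 1.25 in replicate 2, with intervals that include 0.

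The last question was whether the *Mov10* Deletion libraries differ from WT on these genes. With 1 WT library no test of the genotypes was possible, and in a bulk sample fewer cells of a type and less RNA per cell cannot be told apart. Of the 214 genes with a cluster, 108 had one in all libraries, 71 in WT alone and 35 in both *Mov10* Deletion libraries but not WT. The *Mov10* Deletion libraries had identical coordinates for 198 of their member clusters, so their loci are not independent calls. Among the 108 shared genes the median log2 was −2.03 in WT, −1.52 in replicate 1 and −1.63 in replicate 2, and 42 genes were higher in both *Mov10* Deletion libraries than in WT while 16 were lower in both. The box H/ACA snoRNAs counted 16 higher and 3 lower of 27, the box C/D snoRNAs 10 and 1 of 30, the snRNAs 10 and 7 of 29, and the scaRNAs 1 and 4 of 9. For these gene counts, and for those of genes held in all or some libraries, no share over all genes was computed. By overlap of clusters, 133 of 232 WT members (57.3%) met a cluster in both *Mov10* Deletion libraries, against 34.0% of all WT clusters. In the other direction, 141 of 215 members of replicate 1 (65.6%) met a WT cluster, against 22.6% of all its clusters. At these matched loci 45 of 133 were higher in both *Mov10* Deletion libraries, 33.8% against 24.6% of all matched clusters, and 23 were lower, 17.3% against 29.8%. The median difference from WT was 0.41 in replicate 1 and −0.01 in replicate 2, where all matched clusters had 0.04 and −0.21. At single loci the counting error was wide. Only *Gm25099*, a relative of U5 (chr4:117189942-117190057, plus strand), had the intervals of both *Mov10* Deletion libraries above that of WT, which is 0.752% of the matched member loci against 0.0278% of all matched clusters. The member share rests on 1 locus of 133. Members also hold more reads than other clusters, and no share at equal depth was computed. *Gm25099* had −1.88 in WT (−2.36 to −1.43), −0.57 in replicate 1 (−1.13 to −0.03) and −0.43 in replicate 2 (−1.41 to 0.46). No member locus had both intervals below that of WT, against 0.133% of all matched clusters.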

How the data were processed

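AGO2 IP and input libraries of P0 whole brain were processed by the authors with UMI-tools 1.1.1, cutadapt 3.2, STAR 2.7.7a and Bowtie 1.2.3 on mm10, as the submitters' processing notes and methods name them. Reads on ribosomal and repeat sequence had been removed first. Per cluster the authors deposited a log2 IP over input and a −log10 p-value, which reaches 400 at most. Per miRNA target cluster they deposited a score. Total read counts were not given in the sources used here, so the depth of a library is unknown.

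Clusters were joined to RefSeq genes of mm10 by overlap of their coordinates. WT clusters were matched to *Mov10* Deletion clusters with bedtools 2.31.1. The strand of a gene was that of the GENCODE vM39 gene of the same name or synonym on the same chromosome. Of 2385 small RNA genes, 376 were given no strand in this way and were left out. Class and snRNA family came from symbols and from blastn 2.17.0+ hits with an identity of at least 75% over at least 50% of the query. For every library a constant was found such that each deposited ratio was the constant times IP reads over input reads. The p-value, from an exact test where either number was under 5 reads and otherwise a chi-square test with continuity correction, fixed the reads of ratios above 1. The share of such clusters it matched was 97.9% for WT, and 93.2% and 93.8% for the *Mov10* Deletion replicates. Intervals are exact (Clopper-Pearson, 95%) and cover counting error only. On simulated data, intervals wholly below 0 arose in at most 0.085% of clusters that were not below input. That rate pools clusters at input with clusters above it, and the simulated reads were not set to the depth of the libraries. Of simulated clusters set far below input, 37.6% to 61.1% were called below input. Calls of clusters below or above input were added after the data were seen. For a gene with several clusters, the one with the highest log2 stands for it.

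The genes named are those enriched in WT alone, in both *Mov10* Deletion libraries or in all, those on lists of snRNAs, scaRNAs, processing, imprinted and reference snoRNAs, the 5 with the highest log2 per library among clusters with −log10 p of at least 3, and up to 10 with a miRNA target cluster. The other snoRNAs printed as sequences, *Snora65*, *Snora68* and *Snord87*, and *Gm25099*, *Gm22363* and the *Snhg14* snoRNAs other than *Snord64* were singled out after their values were seen. The members and lists were chosen with earlier results of these data known. No genotypes were tested, as WT has 1 library and the *Mov10* Deletion libraries came from separate brains. Some items are not reported here.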

Additional observations from a re-analysis of the deposited data

Results flagged for a closer look

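Of the small RNA genes, 376 were given no strand by name in GENCODE and entered no comparison above. Clusters on them lay low as well, with a median log2 of −1.65 over 73 clusters in WT, −1.52 over 51 in *Mov10* Deletion replicate 1 and −1.80 over 53 in replicate 2. The U3 gene *Rnu3a* had −1.61 in WT (−2.04 to −1.20), −1.34 in replicate 1 (−1.82 to −0.88) and −0.02 in replicate 2 (−0.55 to 0.49). The clusters above input on genes without a strand are given because they lie outside the comparisons of the report. LOC115489586, a snoRNA gene (chr2:26912530-26912600) inside *Rpl7a*, which runs on the plus strand, had clusters on the plus strand that were above input in all libraries. Its log2 was 1.64 in WT (1.05 to 2.26), 3.0 in replicate 1 (2.39 to 3.66), and 3.51 and 3.44 in replicate 2 for a pair of clusters (2.63 to 4.50 and 2.55 to 4.43). The intervals of both *Mov10* Deletion libraries lay above that of WT. The same place held miR-124-3p target clusters with scores of 248 and 382 in WT, 16, 266 and 237 in replicate 1, and 8.17, 137 and 120 in replicate 2. Whether the reads belong to the snoRNA or to *Rpl7a* was not tested. LOC115487678 had 1.52 in replicate 2 (0.18 to 2.89), beside 1.12 in replicate 1, and 0.12 and 0.17 in WT. LOC115489840 had 2.61 in replicate 1 (0.21 to 5.91) from 7 IP and 2 input reads, beside 2.34 in WT and −0.33 in replicate 2.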

How the results depend on the processing

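Of 236 values recomputed under other settings, 218 stayed within a set tolerance and 18 changed beyond it. A count stayed within it when it moved by at most 1.5-fold and not to or from 0. Medians, shares and named log2 values did so when they lay within their own 95% interval. With either strand and genes without a strand admitted, WT had 313 member clusters rather than 232, which is within the tolerance. Raising the −log10 p limit to 5 left WT with 0 enriched clusters, 0 enriched genes and 0 genes enriched in WT alone. With a log2 of at least 2, *Mov10* Deletion replicate 1 had 1 enriched cluster on 1 gene and replicate 2 had 2 enriched genes. With either strand and genes without a strand admitted, replicate 2 had 4 enriched clusters on 2 genes, and target clusters numbered 19 in replicate 1 and 16 in replicate 2; of these, 2 enriched clusters and 7 and 5 target clusters lay on genes without a strand. Without clusters under 10 nt, WT had 1 enriched cluster, and the median width was 55 nt in replicate 1 and 52 nt in replicate 2. Leaving out a *Mov10* Deletion library gave 0 to 1 genes enriched in the remaining one, and 0 to 1 of these not in WT; the 1 gene, without replicate 1, is *Gm24917*. Among alternatives chosen after seeing the data, genes with a cluster in all libraries had a median log2 of −1.56 in replicate 1 and −1.68 in replicate 2, and a call at a log2 of at most −1 gave 122 clusters below input in replicate 2. Beyond the genes without a strand, the cause of these changes was not tested. Requiring at least 16 IP and input reads together, or 1 cluster per gene, kept the values they applied to within the tolerance. Some of these values moved within it. No paired analysis was possible because WT has 1 library. For log2 values below 0 only the smallest reads are known, so the numbers of clusters below input are lower limits, and most clusters hold few reads.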
